A study of Mus musculus with 6 samples.

Results

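The glutathione synthesis and NRF2 axis was followed through 10 genes in mouse blood stem cells: Nfe2l2, Keap1, Gclc, Gclm, Gss, Gsr, Gstm1, Gstp1, Nqo1 and Hmox1. Probe sets, the groups of probes that an array reports as 1 value, were taken where the array's annotation gives exactly 1 gene and that gene is among the 10. This gave 91 probe sets of 241576 in the table, and 10 genes of 20357 with a probe set of their own. The stem cells came from bone marrow and were sorted as lineage negative, Sca-1 positive, c-Kit positive and CD34 negative. On 3 arrays, called floxed here, the mice had floxed alleles of beta-catenin and were positive for Vav-Cre, a transgene in which the Vav promoter drives Cre recombinase in the blood lineage. The other 3 arrays are labelled control, and the labels give neither their genotype nor the age, sex or number of the animals behind any array. No label says that replicates came from separate animals, so p-values here cover only the spread among these arrays, which may be technical. The comparison asks whether transcript levels of this axis differ in stem cells with floxed beta-catenin, in a series whose title names oxidative stress.

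Glutathione is the most abundant small thiol of the cell and is used to reduce peroxides and to tag toxic molecules for export. The transcription factor NRF2, encoded by Nfe2l2, is held in the cytoplasm and marked for degradation by KEAP1; oxidants and electrophiles modify KEAP1, NRF2 accumulates, and it switches on glutathione genes and detoxifying enzymes by binding antioxidant response elements together with small MAF proteins. In blood stem cells this pathway is known to take part in the balance between quiescence and proliferation.

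The core of the antioxidant response element is spelled TGACNNNGC, and it was searched for on both strands in RefSeq promoter windows of build GRCm38.p6, which run from 250 bases before to 50 bases after a gene's start. The search covered 8 windows of 7 of the 10 genes, without Gclc, Gsr and Hmox1, and the windows of Gstm1 overlap. Bases farther from the start were not searched, so a window without the core does not show that a gene lacks it. The core lay in 2 of the 8 windows, 1 of Nfe2l2 and 1 of Gclm, while 12.4% of all 32851 windows hold it. Both matches are shown because they are the only ones in these windows, 5′ to 3′ along the strand that reads TGAC, with the core in capitals and 8 bases on each side. The Nfe2l2 match is at chr2:75704887-75704911 on the minus strand, and its core spans the bases from 240 to 232 before the gene's start. The Gclm match is at chr3:122245415-122245439 on the minus strand, opposite to the gene, and its core spans the bases from 134 to 126 before the start. Its printed strand reads away from the gene, from base 126 to base 134.
Nfe2l2: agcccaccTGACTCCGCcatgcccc
Gclm: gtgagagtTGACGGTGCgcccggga

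The deposited values are on a log2 scale and ran from 2.44 to 14.53. A probe set was kept where its level, averaged over the 6 arrays, was at or above the median level of all probe sets, 7.60, and a gene's value on an array is the median over its kept probe sets. Each fold change is the floxed mean minus the control mean in log2 units, and the test is limma's moderated linear model over all 14590 genes, with p-values adjusted by the Benjamini-Hochberg method. The floxed label was checked on Ctnnb1, the gene of beta-catenin: 5 of its 16 kept probe sets were lower in floxed arrays, by log2 differences from −6.90 to −2.51 (limma adjusted p at most 0.00137), and the other 11 did not pass. Correlations between arrays were taken across genes, and genes are no independent replicates; they were 0.962 to 0.972 within the floxed group and 0.880 to 0.934 within the control group, beside 0.915 to 0.963 between a floxed and a control array. Of the stem cell genes that define the gate, Kit averaged 11.73 ± 0.11 in floxed and 11.84 ± 0.06 in control arrays (SD, n = 3 each), and Ly6a, which encodes Sca-1, averaged 11.28 ± 0.25 and 11.29 ± 0.52 in the same order. Without detection calls none can be called absent, and levels of different genes are not compared because their probes differ.

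None of the 10 genes passed the test. In limma 0 of the 10 had an adjusted p under 0.05, as had 0 of all 14590 genes (0%), with 0.999 for each of the 10 and 0.667 as the smallest over all genes. Ctnnb1 itself did not pass at gene level, where its value is the median over 16 kept probe sets, 11 of which did not pass. A gene value can thus miss a change confined to some of its probe sets. At an unadjusted p under 0.05 there was 1 of the 10, Keap1, against 541 of all genes (3.71%, and 2.43% with the floxed mean higher). Groups did not overlap for 1 of the 10, again Keap1, and for 8.44% of all genes, or 5.57% in the direction of higher floxed values. The floxed mean was the higher in 7 and the lower in 3 of the 10, and 54.2% of all genes had the higher floxed mean. The median log2 fold change of the 10 was 0.091, beside 0.018 over all genes tested. The 10 fold changes ran from −0.13 for Hmox1 to 0.38 for Keap1, and every one of the 10 unadjusted 95% confidence intervals lay within 1 log2 of 0.

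**Figure D1:**
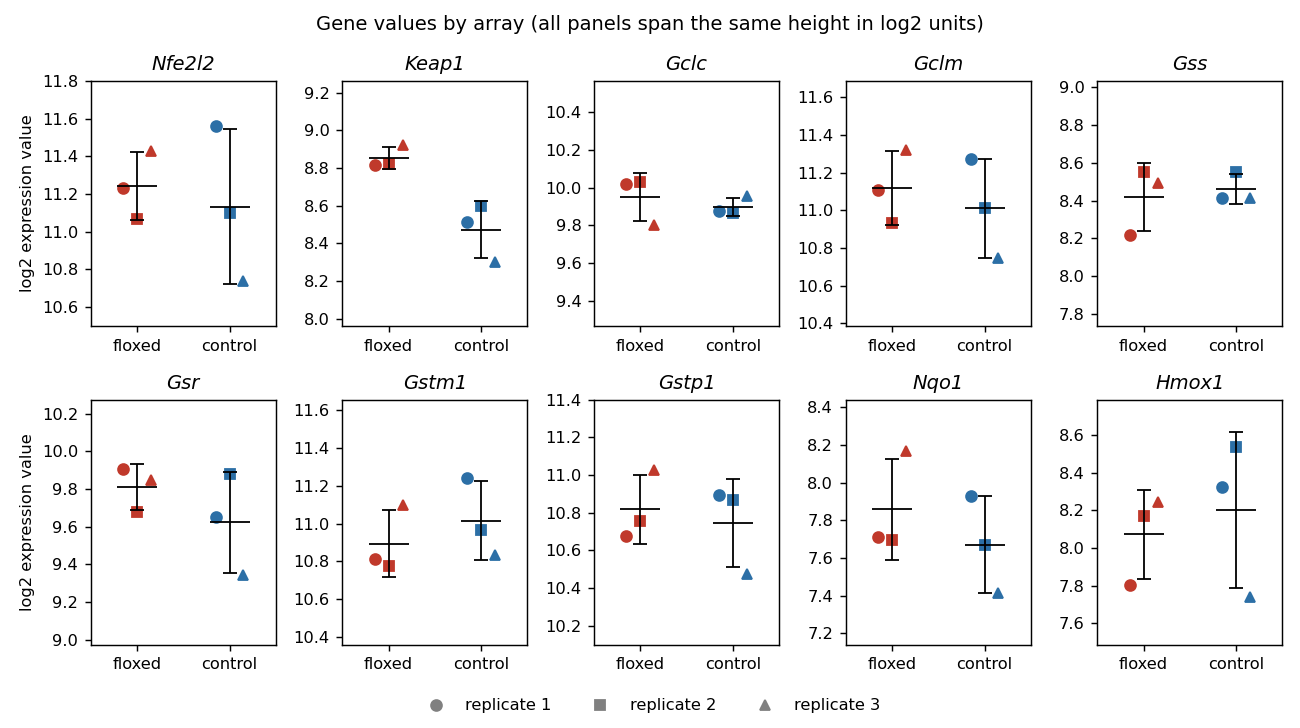
Log2 expression value of each of the 10 genes on the 3 floxed arrays (red, left) and the 3 control arrays (blue, right); symbols mark the replicate number, bars the mean and its SD, and all panels span the same height. Groups are apart only for Keap1, and control replicate 3 (triangle) is the lowest array in 7 of the 10 panels.

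Nfe2l2, the gene of NRF2 itself, had values of 11.23, 11.07 and 11.43 on floxed replicates 1, 2 and 3, against 11.56, 11.10 and 10.74 on control replicates 1, 2 and 3. The control arrays held both the highest and the lowest value, and all floxed values lay between them. The log2 fold change was 0.11 (SE 0.19, 95% confidence interval −0.31 to 0.52, limma adjusted p = 0.999), which in linear terms is 1.08-fold with an interval of 0.808 to 1.44. The spread was 0.18 log2 in floxed and 0.41 log2 in control arrays (SD, n = 3 each). Leaving out control replicate 1 gave 0.32 log2, leaving out floxed replicate 3 gave 0.014 and leaving out control replicate 3 gave −0.090. Of its 7 probe sets 6 were kept, 3 with the higher floxed mean and 3 with the lower, at differences from −0.070 to 0.30 log2.

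Keap1, which encodes the adaptor that hands NRF2 to a ubiquitin ligase, showed the largest difference of the 10. Its values were 8.81, 8.82 and 8.92 on floxed replicates 1, 2 and 3, against 8.51, 8.60 and 8.30 on control replicates 1, 2 and 3. Each floxed array was above each control array, the nearest being floxed replicate 1 and control replicate 2. The log2 fold change was 0.38 (SE 0.15, unadjusted 95% confidence interval 0.04 to 0.72, limma unadjusted p = 0.0307 and adjusted p = 0.999), or 1.30-fold with an interval of 1.03 to 1.64.

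The probe sets of Keap1 differed among themselves, which was not tested. Of 11 probe sets 7 were kept. In order of probe-set number, the second to the fifth had floxed minus control differences from 0.34 to 0.45 log2, and the other 3 kept probe sets had −0.16 to 0.044. On the fifth, the values were 8.81, 8.69 and 9.18 on the floxed arrays, against 8.51, 8.60 and 8.22 on the control arrays, which do not overlap. The sixth had 10.45, 10.61 and 10.78 on the floxed arrays, against 10.76, 10.95 and 10.62 on the control arrays, so that here the floxed mean was the lower and the groups overlapped. None of these probe sets passed (smallest limma adjusted p = 0.975), and the annotation used here does not place them on exons. The gene value therefore turned on the summary: it was 0.18 log2 with the mean in place of the median over probe sets and 0.092 log2 with a filter at the 75th percentile of probe-set means. It was 0.29 to 0.44 log2 when any 1 array was left out.

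**Figure D2:**
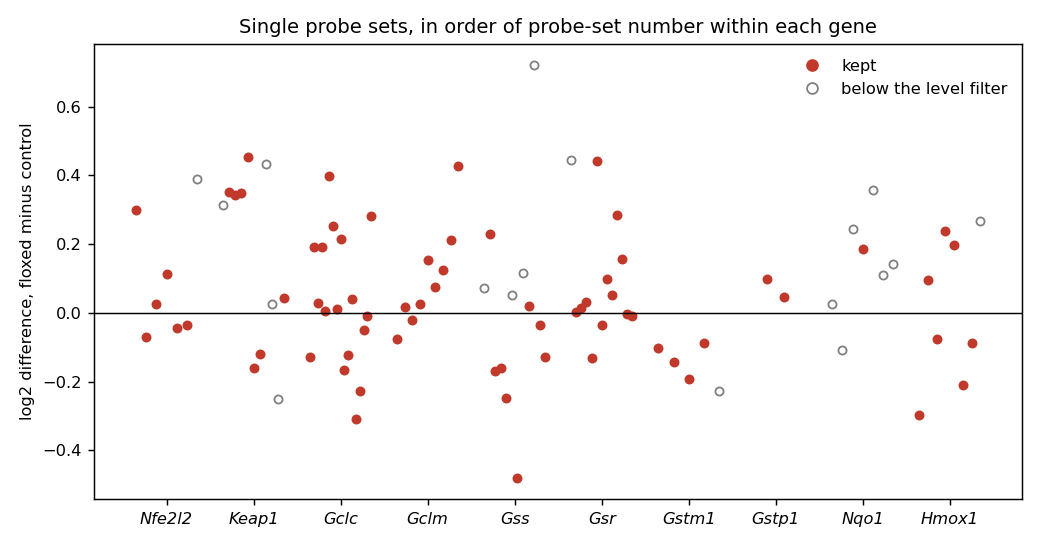
Log2 difference, floxed minus control, of every probe set of the 10 genes, in order of probe-set number within a gene; filled points were kept and open grey points fell below the filter on level. The 4 neighbouring Keap1 points from 0.34 to 0.45 stand above the kept points that follow them, and the open Gss point at 0.72 is the largest difference.

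Single probe sets of the axis did not pass either. Of the 91 probe sets 73 were kept and 18 fell below the filter. Among the 73, 0 passed after adjustment, where 5 of all 120788 kept probe sets did (0.00414%), all of them of Ctnnb1. At an unadjusted p under 0.05 there was 1 of the 73 (1.37%), beside 4.35% of all kept probe sets. Groups did not overlap in 7 of the 73 (9.59%), beside 9.45% of all, and in each of the 7 the floxed arrays were the higher, a direction that 6.46% of all kept probe sets took. Those 7 were 3 of Keap1, 2 of Gclc, 1 of Gclm and 1 of Gsr.

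The genes of glutathione synthesis stood within the spread of the arrays. Gclc and Gclm encode the catalytic and the modifier subunit of glutamate-cysteine ligase, the rate-limiting enzyme that joins glutamate to cysteine, and Gss encodes glutathione synthetase, which adds glycine. Gclc had 10.02, 10.03 and 9.80 on floxed replicates 1, 2 and 3, against 9.88, 9.86 and 9.96 on control replicates 1, 2 and 3. Floxed replicate 3 was the lowest array and the groups overlapped. In log2 terms the fold change was 0.052 (SE 0.13, 95% confidence interval −0.23 to 0.34, limma adjusted p = 0.999). All 17 Gclc probe sets were kept, 10 with the higher floxed mean and 7 with the lower, at differences from −0.31 to 0.40 log2. Leaving out single arrays gave gene values from 0.013 log2, without floxed replicate 2, to 0.13 log2, without floxed replicate 3.

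Gclm had 11.11, 10.93 and 11.32 on the floxed arrays, against 11.27, 11.01 and 10.75 on the control arrays. Floxed replicate 3 was the highest and control replicate 3 the lowest array. The log2 fold change was 0.11 (SE 0.15, 95% confidence interval −0.23 to 0.45, limma adjusted p = 0.999) and turned to −0.021 without control replicate 3. All 9 Gclm probe sets were kept, and 7 had the higher floxed mean. The ninth in number was the probe set of the 73 with an unadjusted p under 0.05: it had 11.29, 11.31 and 11.58 on the floxed arrays, against 11.27, 10.86 and 10.77 on the control arrays (difference 0.43 log2, limma unadjusted p = 0.0235 and adjusted p = 0.975). The highest control value there, of control replicate 1, was only just below the lowest floxed value.

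Gss had 8.22, 8.55 and 8.49 on the floxed arrays, against 8.42, 8.55 and 8.41 on the control arrays. Floxed replicate 1 was the lowest array, and the other floxed values lay within the control range. Floxed minus control, Gss had −0.042 log2 (SE 0.16, 95% confidence interval −0.40 to 0.32, limma adjusted p = 0.999). It turned to 0.060 without floxed replicate 1 and to 0.0043 without control replicate 2, and was −0.25 with the filter at the 75th percentile. Of its 12 probe sets 8 were kept, 2 with the higher and 6 with the lower floxed mean. The largest difference of any of the 91 probe sets, 0.72 log2, was on a Gss probe set below the filter, where the values were 6.29, 6.15 and 6.53 on the floxed arrays, against 6.28, 6.15 and 4.38 on the control arrays. That difference lay in control replicate 3 alone, since the other control values were like the floxed ones.

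Gsr encodes glutathione reductase, which returns oxidised glutathione to its reduced form with NADPH. Its values were 9.91, 9.68 and 9.85 on the floxed arrays, against 9.65, 9.88 and 9.34 on the control arrays. Control replicate 2 reached into the floxed range and control replicate 3 was the lowest array. Gsr thus had a log2 fold change of 0.19 (SE 0.16, 95% confidence interval −0.17 to 0.54, limma adjusted p = 0.999). Of its 13 probe sets 12 were kept, 8 with the higher floxed mean, and on 1 of them the groups did not overlap, with 8.40, 8.43 and 8.42 on the floxed arrays, against 8.19, 8.15 and 7.58 on the control arrays. The fourth Gsr probe set in number averaged 12.20 in floxed and 12.17 in control arrays. The gene value was 0.048 log2 without control replicate 3, 0.32 without control replicate 2, 0.0045 with the filter at the 75th percentile and −0.025 with array weights.

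Gstm1 and Gstp1 encode glutathione S-transferases of the mu and pi classes, which attach glutathione to electrophiles. Gstm1 had 10.81, 10.77 and 11.10 on the floxed arrays, against 11.24, 10.97 and 10.83 on the control arrays. Floxed replicates 1 and 2 were the lowest arrays and control replicate 1 the highest. Gstm1 thus had a log2 fold change of −0.12 (SE 0.14, 95% confidence interval −0.43 to 0.19, limma adjusted p = 0.999). The floxed mean was the lower on all 4 kept Gstm1 probe sets, by −0.19 to −0.088 log2, and the 4 share the same arrays. The gene value was −0.0076 log2 without control replicate 1 and −0.22 log2 without floxed replicate 3. Whether these probes also bind transcripts of other mu-class genes was not tested.

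Gstp1 rested on 2 probe sets of its own. It had 10.68, 10.76 and 11.03 on the floxed arrays, against 10.90, 10.87 and 10.48 on the control arrays, and the groups overlapped. The log2 fold change was 0.073 (SE 0.15, 95% confidence interval −0.26 to 0.40, limma adjusted p = 0.999), and it turned to −0.062 without control replicate 3. A further 6 probe sets are annotated to both Gstp1 and its close copy Gstp2 and were not counted to either gene. The 4 of them above the filter had differences from −0.050 to 0.23 log2 and did not pass (smallest limma adjusted p = 0.975), so signal of the 2 genes cannot be told apart there.

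Nqo1 encodes a quinone reductase and is among the classical NRF2 targets. Only 1 of its 7 probe sets was kept, with 7.71, 7.69 and 8.17 on the floxed arrays, against 7.93, 7.67 and 7.42 on the control arrays. Floxed replicate 3 was the highest and control replicate 3 the lowest array, and the remaining 4 values lay close together. For Nqo1 the log2 fold change was 0.19 (SE 0.22, 95% confidence interval −0.29 to 0.67, limma adjusted p = 0.999). The 6 dimmer probe sets differed by −0.11 to 0.36 log2, the largest of them on a probe set whose control replicate 3 stood at 5.90 where the other 5 arrays ran from 7.10 to 7.72. Leaving out floxed replicate 3 gave a gene value of 0.032 log2, leaving out control replicate 3 gave 0.059 and leaving out control replicate 1 gave 0.31. Any statement on Nqo1 is thus limited by its low signal.

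Hmox1 encodes haem oxygenase 1, an NRF2 target that breaks down haem and is repressed by BACH1; macrophages that take up red cells are known to hold much of it. It had 7.80, 8.17 and 8.24 on the floxed arrays, against 8.32, 8.54 and 7.74 on the control arrays. Control replicates 1 and 2 were the highest arrays and control replicate 3 the lowest, so the floxed values lay inside the control range. The log2 fold change was −0.13 (SE 0.23, 95% confidence interval −0.64 to 0.38, the widest of the 10 on the log2 scale, limma adjusted p = 0.999), or 0.915-fold with an interval of 0.643 to 1.30. It was 0.041 without control replicate 2 and −0.36 without control replicate 3. Of its 8 probe sets 7 were kept, 3 with the higher and 4 with the lower floxed mean, all with a group overlap.

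**Figure D3:**
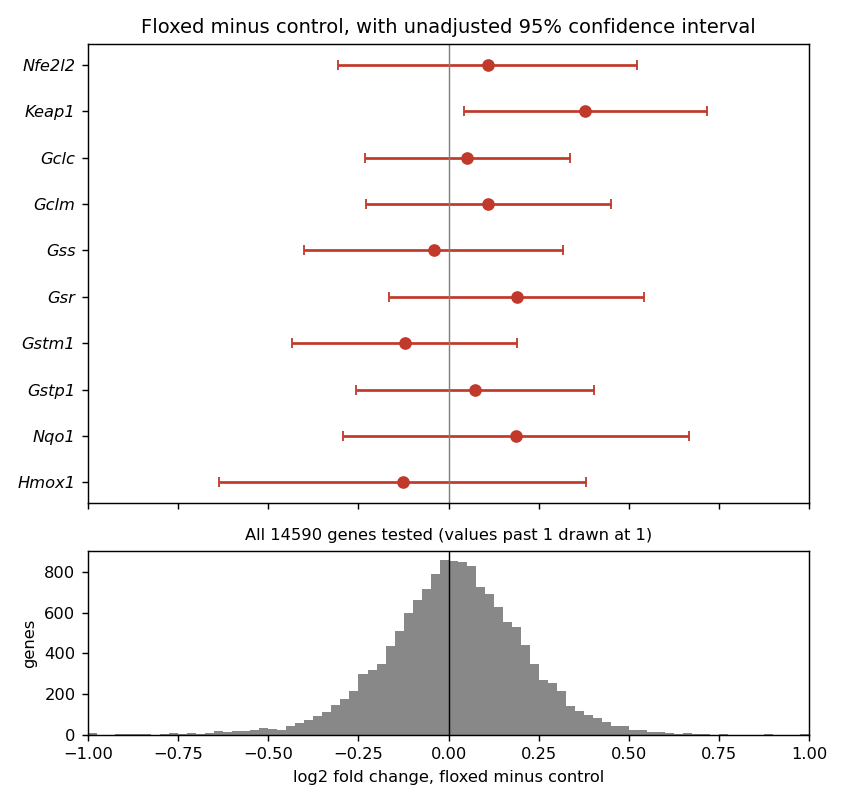
Upper panel, log2 fold change of each gene (floxed minus control) with its unadjusted 95% confidence interval; lower panel, the same fold change for all 14590 genes tested, on the same axis. The interval of Keap1 alone leaves out 0, at 0.04 to 0.72, and none of the 10 genes passed after adjustment.

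In 9 of the 10 genes, all but Keap1, the range of the control arrays was wider than the difference between the group means. Deviations of each gene from its own mean over the 6 arrays had medians of −0.0050, −0.034 and 0.19 log2 on floxed replicates 1, 2 and 3, against 0.14, −0.021 and −0.33 log2 on control replicates 1, 2 and 3. Control replicate 3 was the lowest array for 7 of the 10 genes, and for 34.6% of all genes tested. Its median deviation over all genes was −0.081 log2, and its array median, 7.56, was the lowest of the 6, which otherwise ran from 7.62 to 7.65. Without control replicate 3 the median log2 fold change of the 10 genes was −0.041, and without control replicate 1 it was 0.18. With equal array medians it was 0.060. The control SD was the larger in 7 of the 10 genes, and in 73.6% of all genes.

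**Figure D4:**
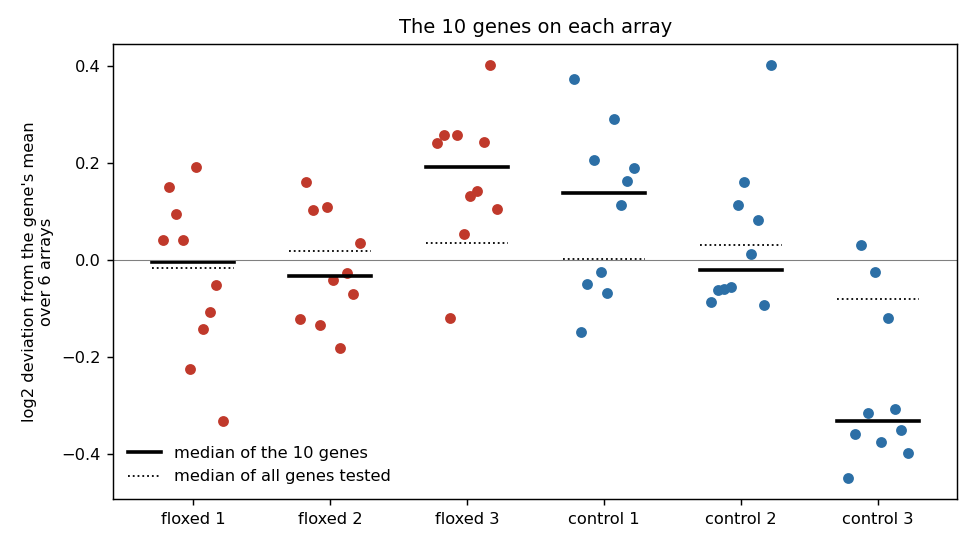
Deviation of each of the 10 genes from its own mean over the 6 arrays (log2, vertical axis), by array; points run from Nfe2l2 to Hmox1 from left to right within an array, solid bars are the median of the 10 genes and dotted bars the median of all genes tested. Control replicate 3 lies at −0.33 for the 10 genes and at −0.081 for all genes, and floxed replicate 3 and control replicate 1 are the highest.

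Some other genes showed the array pattern of Nfe2l2 closely. Likeness was measured as the root mean square difference between deviations over the 6 arrays, among 10184 genes with at least 3 kept probe sets. Among the 3 nearest to Nfe2l2 were Dera, which encodes deoxyribose-phosphate aldolase, and Dph3, a gene of diphthamide synthesis, at 0.046 and 0.047 log2. Dera had 9.36, 9.20 and 9.47 on the floxed arrays, against 9.69, 9.13 and 8.88 on the control arrays, so it too was highest on control replicate 1 and lowest on control replicate 3. For Hmox1, the most variable of the 10 with an SD of 0.31 log2 over the 6 arrays, the nearest were Bbs2, B430306N03Rik and Itgb2, at 0.068, 0.074 and 0.082 log2. Bbs2 encodes a subunit of a cilium transport complex and Itgb2 the beta chain of leukocyte integrins.

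Listed regulators, partners and relatives of NRF2 did not pass either. All 15 of them were tested, 11 with the higher and 4 with the lower floxed mean, and 0 passed in either direction. Their median log2 fold change was 0.11, beside 0.018 over all genes, and 0 had an unadjusted p under 0.05. The smallest p-values belonged to Rbx1 and Cul3, which encode the RING and scaffold subunits of the ligase that KEAP1 serves, and to Nfe2, a relative of Nfe2l2 in red cell and platelet precursors, at 0.33, 0.20 and 0.17 log2. Cul3 had 11.10, 10.97 and 11.23 on the floxed arrays, against 10.88, 10.91 and 10.93 on the control arrays, which do not overlap (limma adjusted p = 0.999). It was the 1 of the 15 without overlap, beside 8.44% of all genes, or 5.57% with the floxed arrays higher. Of all genes tested, 54.2% had the higher floxed mean and 3.71% a limma unadjusted p under 0.05.

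Of 23 other textbook targets of NRF2, 20 were tested, since Slc7a11, G6pdx and Ftl1 had no kept probe set of their own. The floxed mean was the higher in 11 and the lower in 9, 0 passed in either direction, and the median log2 fold change was 0.067. Prdx1, which encodes a peroxiredoxin that reduces peroxides, was the 1 target with an unadjusted p under 0.05, with 11.08, 10.53 and 10.72 on the floxed arrays, against 10.37, 10.13 and 10.42 on the control arrays (difference of means 0.47 log2, SE 0.16, limma adjusted p = 0.999). Its floxed values all lay above its control values. The pentose phosphate genes Tkt and Pgd, whose pathway supplies NADPH, had 0.20 and −0.19 log2, Pgd with all floxed values below its control values, and Txn1, the thioredoxin gene, had 0.082 log2. Targets thus lay on both sides of 0. Groups did not overlap in 1 of the 20 in each direction, beside 8.44% of all genes, or 5.57% with the floxed arrays higher. Over all genes, 3.71% had a limma unadjusted p under 0.05, and 54.2% had the higher floxed mean.

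Supply and turnover of glutathione were covered by 17 genes, of which 14 were tested and Slc7a11, Cth and Ggt7 were not. The floxed mean was the higher in 6 and the lower in 8, with a median log2 fold change of −0.038 and 0 passing in either direction. Ggt5, a gamma-glutamyl transferase gene, had 0.22 log2, Chac1, whose product degrades glutathione, had −0.21 log2, and Slc25a39, the gene of a mitochondrial glutathione carrier, had −0.15 log2. Slc3a2, which encodes the heavy chain of the cystine exchanger and other amino acid transporters, had 0.077 log2. Of 23 further transferase genes 18 were tested, and Gsta1, Gsta2, Gsta3, Gstm6 and Hpgds were not. The floxed mean was the higher in 8 and the lower in 10, the median was −0.022 log2, and 0 passed in either direction. Gstp2, on 1 kept probe set, had 0.26 log2, with 7.99, 7.85 and 7.91 on the floxed arrays, against 7.64, 7.63 and 7.69 on the control arrays, without overlap. Gsto2, Mgst2 and Gsto1 had −0.26, 0.22 and 0.14 log2, Gsto1 also with all floxed values above its control values. Groups thus did not overlap in 2 of the 18, both with the floxed arrays higher, beside 8.44% of all genes, or 5.57% in that direction.

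Markers of other cells were read from the same fit, since fewer cells of a type and less RNA per cell cannot be told apart in such samples. Mean deviations of 10 granulocyte genes ran from −0.52 to 0.29 log2 on floxed arrays and from −0.45 to 0.64 log2 on control arrays. Of the 10, 9 had the lower floxed mean (median log2 fold change −0.43, 0 passing), and 2 of these had an unadjusted p under 0.05, among them the granule gene Ngp at −0.88. Of 10 macrophage genes 7 had the lower floxed mean (median −0.048, 0 passing), with mean deviations from −0.13 to 0.030 log2 on floxed and from −0.10 to 0.21 log2 on control arrays, and C1qc, a complement gene, had −0.39. All 9 erythroid genes tested had the lower floxed mean (median −0.32, 0 passing, 2 with an unadjusted p under 0.05, Epor −0.48), with mean deviations from −0.30 to 0.18 log2 on floxed and from 0.0095 to 0.34 log2 on control arrays. Over all genes, 3.71% had a limma unadjusted p under 0.05 in either direction, and 54.2% had the higher floxed mean. Genes of a list share the same arrays and are no independent replicates. The granulocyte, macrophage and erythroid lists were all highest on control replicate 2, as were Hmox1 and 20.9% of all genes tested. On control replicate 3, where Hmox1 was lowest, the macrophage list stood at 0.083 log2, the erythroid list at 0.0095 and the granulocyte list at −0.45.

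Lymphoid and stem cell markers did not pass. The 7 B lineage genes had mean deviations from −0.28 to 0.39 log2 on floxed and from −0.95 to 0.78 log2 on control arrays. Their median log2 fold change was −0.068, with Vpreb1 at −0.14 and 0 passing. The 5 T and NK cell genes had a median of −0.17 (Cd4 −0.63, 0 passing), with mean deviations from −0.35 to 0.15 log2 on floxed and from 0.061 to 0.15 log2 on control arrays. The 9 stem cell genes had a median of 0.020 (Slamf1 0.23, 0 passing), with mean deviations from −0.077 to 0.16 log2 on floxed and from −0.15 to 0.19 log2 on control arrays. The B lineage, stem cell, further transferase and glutathione supply lists were all highest on control replicate 1 and lowest on control replicate 3, as was Nfe2l2. For the supply list, floxed replicate 1 was almost as low. Of all genes tested, 22.5% were highest on control replicate 1 and 34.6% were lowest on control replicate 3. The lineage-negative sort is made to leave out mature granulocytes, erythroid, B and T cells. The part of other cells in the levels of Nfe2l2 and Hmox1 was not tested.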

How the data were processed

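The authors deposited log2 expression values for 241576 probe sets on 6 arrays. That they are in base 2 was inferred from their range. Per the labels' protocols, 100 ng of total RNA went into biotinylated cRNA. MAS5 is named in the submitters' processing notes, without its role or version. The steps of background correction and normalization are not stated in these sources. Medians of the arrays differed little (7.56 to 7.65), so the values were used as they are. Precision is limited by the number of arrays.

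In the platform annotation 212197 probe sets have 1 gene symbol, 4375 have several and 25004 have none. Of 21376 symbols, 18326 were current in RefSeq's GRCm38.p6 table, 2992 were renamed by synonym and 58 had no match. Probe sets with a mean of at least 7.60 were kept (120788, of which 110399 had 1 gene), and the median over a gene's kept probe sets gave 14590 genes. Genes and kept probe sets each went into a limma model (limma 3.58.1, R 4.3.3, lmFit, eBayes with trend, two-sided, Benjamini-Hochberg, threshold 0.05), with values read by the data.table package (1.17.8). The code was tested on simulated data.

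Groups and replicate numbers came from the sample titles. No label says that a shared number marks a litter or day, so the model has no block. The 10 genes and the 11 lists (the 10 genes, NRF2 regulators, NRF2 targets, glutathione supply and turnover, other transferases, and markers of stem cells, granulocytes, macrophages, erythroid cells, B cells, and T and NK cells) were chosen with earlier results of these data known. Named are the 10 genes, the 3 genes of smallest p and the gene of highest signal of each pathway list (a rule of choice, since signals of different probes are not comparable), the gene of smallest p of each marker list, the 3 nearest genes by array pattern (1 of them is not reported here), and Ctnnb1 as a check of the labels; the gate genes Kit and Ly6a were added outside this rule. The 15 alternatives are given in the closing section.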

Additional observations from a re-analysis of the deposited data

How the results depend on the processing

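Under the 15 alternatives (each array left out, a replicate block, array weights, robust or trend-free eBayes, the mean over probe sets, a stricter filter at the 75th percentile or none, array medians made equal, and quantile normalization), 0 of the 10 genes passed in limma, and 0 of their probe sets in the 14 that apply to probe sets. The smallest limma adjusted p among the 10 was 0.178, that of Keap1 with array weights. Over all genes the count of calls was 0, but 2 with no filter (Mup10 and Sva, with 20357 genes tested), 1 with the mean over probe sets (Ctnnb1) and 406 with array weights; leaving out single arrays gave 0 to 2 (Rab9 and Rny1 without control replicate 1). These 5 genes were named after their values were seen. The array weights were 3.37 for control replicate 2, 0.27 for control replicate 1 and 0.40 for control replicate 3. The fit with array weights, which gave the 406 calls, thus leaned mainly on 1 control array. Arrays of the same number did not deviate together throughout (correlations 0.20, −0.0038 and −0.24 for replicates 1, 2 and 3). With the replicate block 0 genes passed, the fold changes were the same, and no call among the 10 changed. The median log2 fold change of the 10 ran from −0.041 to 0.18. Of 148 values of single genes, 10 turned sign, none of them past the threshold under either setting. Array weights gave −0.025 for Gsr and −0.025 for Gstp1. With 1 array left out, values ran from −0.090 to 0.32 for Nfe2l2, −0.021 to 0.24 for Gclm, −0.11 to 0.060 for Gss, −0.062 to 0.15 for Gstp1 and −0.36 to 0.041 for Hmox1. Gss (0.060) and Hmox1 (0.0063) turned without floxed replicate 1, Gstp1 (−0.030) without floxed replicate 3, and Gss (0.0043) and Hmox1 (0.041) without control replicate 2. Without control replicate 3, Nfe2l2 (−0.090), Gclm (−0.021) and Gstp1 (−0.062) turned. The causes were not tested. Nqo1 and Hmox1 gave no value with the filter at the 75th percentile, which left them no probe set. How far Nqo1 and the 18 dim probe sets lie above background is not known.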
